A study of Homo sapiens with 2 samples.

Results

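The SRC family kinases are a group of related cytoplasmic tyrosine kinases, and 8 of their genes, SRC, YES1, FYN, LYN, LCK, FGR, BLK and FRK, are described here with CSK, the kinase that holds them in check. These 9 genes were the members of 19775 genes that had a probe set of their own on the arrays, and they were taken up by every probe set annotated to exactly 1 of their symbols, 26 in all. The members were proposed with the values of these arrays in view, so the values below are a description and carry no test. Expression was measured on 2 Affymetrix 3′ arrays of SW620, an established human line from a colorectal cancer metastasis, grown in RPMI-1640. In the SOX2 knockdown culture a lentivirus delivered a short hairpin RNA that targets SOX2, a transcription factor best known from pluripotent cells, and in the mock knockdown culture the hairpin had no target. Each group was 1 array of 1 culture, and the sources used here do not say whether the cultures were pools or clones.

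Most SRC family kinases sit on the inner face of the plasma membrane, held there by lipid anchors at their amino terminus. They pass signals from receptors and integrins that often lack a kinase of their own. Each carries an SH3 and an SH2 domain before the kinase domain. CSK phosphorylates a tyrosine in their carboxy-terminal tail, which folds the kinase into a closed, inactive form, and phosphatases that remove this phosphate open it. SRC, YES1 and FYN are found in most tissues, LCK is best known from T cells, where it starts signalling from the T cell receptor, LYN and BLK from B cells and FGR from myeloid cells. FRK is a more distant relative of epithelial cells. In the colon SRC and YES1 are known for raised activity in tumours, and LCK is known to be expressed in some colorectal cancer lines.

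SOX2 stood at an intensity of 20.9 on the SOX2 knockdown array and 2077 on the mock array at its brightest probe set, and was at least 30.3-fold lower. Its other probe set that reached the floor, 213721_at, gave 120 on the SOX2 knockdown array and 333 on the mock array, and was 2.76-fold lower. Such bounds are taken against a floor of 68.5, the median of all values, while log2 differences, counts and list medians use the values as deposited, also under the floor. The group names come from the source names. The sample titles end in KO, and a further label of both samples names a mouse liver, which goes against the organism and line given elsewhere. Among 11 markers of colorectal epithelium all reached the floor on at least 1 array, with EPCAM at 9898 on the SOX2 knockdown array and 8910 on the mock array. The markers CDX1, CDX2, CDH17, CEACAM5 and GPA33 were dim at their brightest probe sets. They lay between 78.0 and 133 on the SOX2 knockdown array and between 35.5 and 130 on the mock array. By 2-fold as deposited 1 of the 11, CDH17, was higher, at 1.13, and 1, VIL1, was lower, at -1.25. Over all genes that reached the floor 8.44% were at least 2-fold higher and 7.29% lower, so nothing is read from these counts. The 4 probe sets of VIL1 ran from -1.25 to -0.19, and another probe set of CEACAM5 differed by 1.28. The mock value of CDH17 lay under the floor, and against the floor it was at least 1.14-fold higher. Whether both cultures were the same line was not tested, and every difference below is between the cultures as labelled. Intensities are on the linear scale the authors deposited, differences are log2 values of SOX2 knockdown minus mock knockdown, and a gene is represented by the probe set whose mean over both arrays was highest. In bulk cultures fewer cells that express a gene and less of its RNA per cell cannot be told apart.

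LCK, FYN and LYN were far lower on the SOX2 knockdown array, while YES1, CSK and SRC were higher by smaller amounts at their brightest probe sets. Of the 9 members, 8 reached the floor, and among these 3 were at least 2-fold lower and 1 at least 2-fold higher. Over all 13609 genes that reached the floor, 7.29% were at least 2-fold lower and 8.44% at least 2-fold higher. These shares stand for 992 and 1148 genes, and with values under the floor raised to it 903 were lower and 1068 higher. With a limit of 1.5-fold 4 members were lower and 1 was higher, against 14.8% of all genes lower and 15% higher. With a limit of 3-fold 3 members were lower and 0 higher, against 3.43% of all genes lower and 4.44% higher. The members were chosen on this contrast, so nothing is read from their count against these shares. The median difference of the 8 members was -0.48, against -0.0063 over all genes. That median lies in a gap between LCK, FYN, LYN and FRK, at -0.92 or lower, and the other 4 members, which ran from -0.048 to 1.04.

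**Figure D1:**
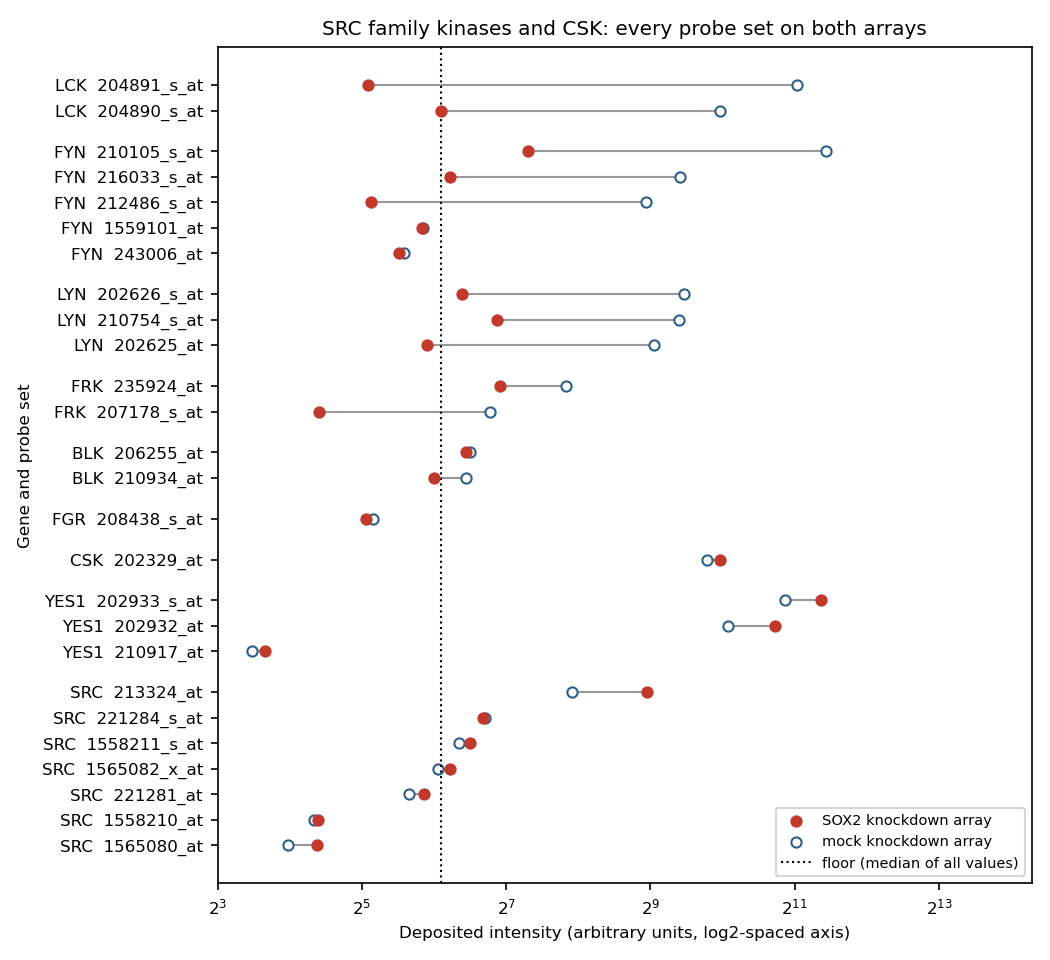
Deposited intensity (arbitrary units, on a log2-spaced horizontal axis) of all 26 probe sets of the 9 genes on the SOX2 knockdown array (filled points) and the mock knockdown array (open points), with 1 line per probe set and 1 array per group, so no error bars. All 8 probe sets of LCK, FYN and LYN that reached the floor (dotted line, 68.5) lie far to the left on the SOX2 knockdown array, and both YES1 probe sets that reached it lie to the right.

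LCK, the kinase that phosphorylates the T cell receptor complex, had the largest difference of the members. Its brightest probe set, 204891_s_at, gave an intensity of 34.1 on the SOX2 knockdown array and 2093 on the mock array. The other, 204890_s_at, gave 68.3 on the SOX2 knockdown array and 998 on the mock array. Both probe sets were high on the mock array and under the floor on the SOX2 knockdown array, so LCK had no measured level there. LCK was therefore at least 30.5-fold lower by the first probe set and at least 14.6-fold lower by the second. As deposited, the log2 differences were -5.94 and -3.87. With the floor in place of lower values they were -4.93 and -3.86. Both probe sets can match several transcripts, and without such probe sets LCK had no value.

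FYN, a widely expressed kinase of adhesion and immune receptor signalling, was the next lowest member. Probe set 210105_s_at gave 158 on the SOX2 knockdown array and 2768 on the mock array, a log2 difference of -4.13 or 17.5-fold lower, with both values above the floor. Probe set 216033_s_at gave 74.7 on the SOX2 knockdown array and 680 on the mock array, and was 9.11-fold lower. Probe set 212486_s_at gave 34.8 on the SOX2 knockdown array and 492 on the mock array, and was at least 7.18-fold lower. These 3 probe sets went the same way and left between 5.72% and 10.98% of the mock value as deposited. All 3 can match several transcripts. The remaining probe sets, 1559101_at and 243006_at, lay under the floor on both arrays, between 45.9 and 57.2 on the SOX2 knockdown array and between 48.0 and 57.7 on the mock array, and say nothing on the difference.

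LYN, a kinase of B cell and Fc receptor signalling that is also found in many epithelial tumours, was lower by every probe set. Probe set 210754_s_at gave 117 on the SOX2 knockdown array and 673 on the mock array, a log2 difference of -2.52 or 5.74-fold lower. Probe set 202626_s_at gave 83.7 on the SOX2 knockdown array and 703 on the mock array, and was 8.40-fold lower. Probe set 202625_at gave 59.8 on the SOX2 knockdown array and 528 on the mock array, and was at least 7.71-fold lower. On the SOX2 knockdown array 1 of the 3 lay under the floor, and all 3 were high in the mock culture. Probe sets 210754_s_at and 202626_s_at can match several transcripts, and without such probe sets LYN differed by -3.14. Together LCK, FYN and LYN had 8 probe sets that reached the floor, all 8 at least 2-fold lower. Of the 24617 named probe sets reaching the floor, 6.87% were at least 2-fold lower and 8.08% at least 2-fold higher. These genes were grouped for their low values here, and some of their probe sets reached the floor only on the mock array. Nothing is therefore read from this count against these shares. Probe sets of a gene share the culture, the extraction and the array, so their agreement is no replicate of the knockdown.

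The start regions of LCK and FYN are shown because these genes were low together, with that of YES1, which was not lower, beside them. The sequences are RefSeq windows of GRCh38.p14, each from 250 bases before to 50 bases after an annotated start, written 5′ to 3′ on the strand of the gene. Capitals mark the letters ACAAAG or ACAATG, core sequences bound by SOX proteins, searched on both strands, where an opposite-strand match reads CTTTGT or CATTGT. LCK has an upstream start and a downstream start, at chr1:32251015-32251314 and chr1:32273871-32274170 on the plus strand. FYN has 4 windows, of which those with a match are given, counted from the 5′ end as window 2 at chr6:111873022-111873321 and window 4 at chr6:111759032-111759331, both on the minus strand. The YES1 window is at chr18:812193-812492 on the minus strand.
LCK upstream start: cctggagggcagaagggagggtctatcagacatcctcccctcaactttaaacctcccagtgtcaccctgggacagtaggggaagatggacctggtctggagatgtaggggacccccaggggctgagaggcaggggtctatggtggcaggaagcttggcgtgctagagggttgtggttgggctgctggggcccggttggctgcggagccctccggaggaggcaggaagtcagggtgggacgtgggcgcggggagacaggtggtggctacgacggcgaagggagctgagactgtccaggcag
LCK downstream start: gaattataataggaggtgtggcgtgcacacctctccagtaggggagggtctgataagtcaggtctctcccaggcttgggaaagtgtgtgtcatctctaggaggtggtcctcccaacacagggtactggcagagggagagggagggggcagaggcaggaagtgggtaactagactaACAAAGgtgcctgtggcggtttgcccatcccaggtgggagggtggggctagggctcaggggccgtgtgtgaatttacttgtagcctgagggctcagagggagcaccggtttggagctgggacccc
FYN window 2: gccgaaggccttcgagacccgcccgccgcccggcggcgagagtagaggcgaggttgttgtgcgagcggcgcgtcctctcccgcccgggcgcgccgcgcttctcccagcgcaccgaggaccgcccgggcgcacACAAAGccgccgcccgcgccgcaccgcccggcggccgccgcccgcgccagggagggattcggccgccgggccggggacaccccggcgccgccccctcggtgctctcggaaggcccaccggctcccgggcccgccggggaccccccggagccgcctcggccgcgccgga
FYN window 4: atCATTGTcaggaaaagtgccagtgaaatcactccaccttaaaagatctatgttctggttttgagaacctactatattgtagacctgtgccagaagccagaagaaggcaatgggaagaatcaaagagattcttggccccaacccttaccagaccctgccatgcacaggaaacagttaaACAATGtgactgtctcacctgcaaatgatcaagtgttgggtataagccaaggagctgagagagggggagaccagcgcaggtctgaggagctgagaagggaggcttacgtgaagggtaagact
YES1 start: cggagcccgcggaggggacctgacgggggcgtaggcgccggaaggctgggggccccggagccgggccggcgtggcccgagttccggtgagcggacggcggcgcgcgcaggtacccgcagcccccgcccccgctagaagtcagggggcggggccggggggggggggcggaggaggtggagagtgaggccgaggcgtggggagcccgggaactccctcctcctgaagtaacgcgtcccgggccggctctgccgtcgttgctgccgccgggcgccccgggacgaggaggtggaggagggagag

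The downstream LCK window held ACAAAG once, its first base 75 bases before the start, and the upstream LCK window held neither motif. FYN window 2 held ACAAAG once, 118 bases before the start. FYN window 4 held ACAATG on both strands, 248 and 72 bases before the start. The YES1 window and those of CSK, FRK and FGR held neither motif. In all 3 of 11 member windows held a match, while 24.5% of the 35116 windows of all genes did, 16.1% with ACAAAG and 10.8% with ACAATG. The table held windows for 6 of the 9 members, and SRC, LYN and BLK are named only. A match in these letters is a description and not a binding site, and the 3′ arrays do not tell which start a transcript came from.

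The windows of the low members spanned a wide range of base composition. The LCK windows held 64.3% and 58.7% G and C and the FYN windows 69.0%, 82.3%, 38.0% and 47.3%, while the YES1 window held 78.7%, against a median of 58.7% over all windows. The ratio of observed to expected CpG was 0.36 and 0.17 in the LCK windows, and 0.76, 1.09, 0.74 and 0.12 in those of FYN. It was 0.89 in the YES1 window, with a median of 0.58 over all windows. FRK, whose window held 42.3% G and C, and CSK, at 54.3%, had ratios of 0.16 and 0.18.

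FRK was lower by both probe sets, but by under 2-fold where both arrays were above the floor. Probe set 235924_at gave 120 on the SOX2 knockdown array and 228 on the mock array, a log2 difference of -0.92 or 1.89-fold lower. Probe set 207178_s_at gave 21.2 on the SOX2 knockdown array and 110 on the mock array, and was at least 1.61-fold lower, with a difference of -2.37 as deposited. FRK was thus the member just outside the limit of 2-fold, and SRC, at 2.06-fold higher, the member just inside it.

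The remaining blood cell kinases were near the floor on both arrays. BLK, a kinase of B cells, gave 87.2 on the SOX2 knockdown array and 90.1 on the mock array at 206255_at, a log2 difference of -0.048. At 210934_at it gave 64.2 on the SOX2 knockdown array and 87.1 on the mock array, and was at least 1.27-fold lower. FGR, with 1 probe set, gave 33.2 on the SOX2 knockdown array and 35.6 on the mock array and did not reach the floor.

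YES1, a close relative of SRC, was modestly higher on the SOX2 knockdown array. Probe set 202933_s_at gave 2628 on the SOX2 knockdown array and 1862 on the mock array, a log2 difference of 0.50 or 1.41-fold higher. Probe set 202932_at gave 1690 on the SOX2 knockdown array and 1079 on the mock array, or 1.57-fold higher. Both were well above the floor on both arrays and went the same way, within 0.15 of each other on the log2 scale. The remaining one, 210917_at, lay under the floor on both arrays.

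SRC passed 2-fold at 1 of its 4 probe sets that reached the floor. Probe set 213324_at, the brightest, gave 495 on the SOX2 knockdown array and 240.0 on the mock array, a log2 difference of 1.04 or 2.06-fold higher. Probe set 221284_s_at gave 103 on the SOX2 knockdown array and 104 on the mock array, a difference of -0.018. Probe sets 1558211_s_at and 1565082_x_at differed by 0.16 each. These last ones and 221284_s_at lay close to the floor, between 74.3 and 103 on the SOX2 knockdown array and between 66.5 and 104 on the mock array. With the median over these 4 probe sets SRC differed by 0.16, and with the probe set of smallest difference by -0.018, so its place past 2-fold rested on 1 probe set. The 3 others of its 7 probe sets did not reach the floor.

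CSK, the kinase that phosphorylates the inhibitory tail tyrosine, gave 1002 on the SOX2 knockdown array and 879 on the mock array at its single probe set, 202329_at. The log2 difference was 0.19, or 1.14-fold higher. Over 6440 genes with several probe sets reaching the floor, differences of probe sets of 1 gene had a pooled SD of 0.49, which is larger than the difference of CSK and about the size of that of YES1. The differences of LCK, FYN and LYN ran from -5.94 to -2.52 over their 8 probe sets that reached the floor, as deposited. This SD holds no variation between cultures or arrays.

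**Figure D2:**
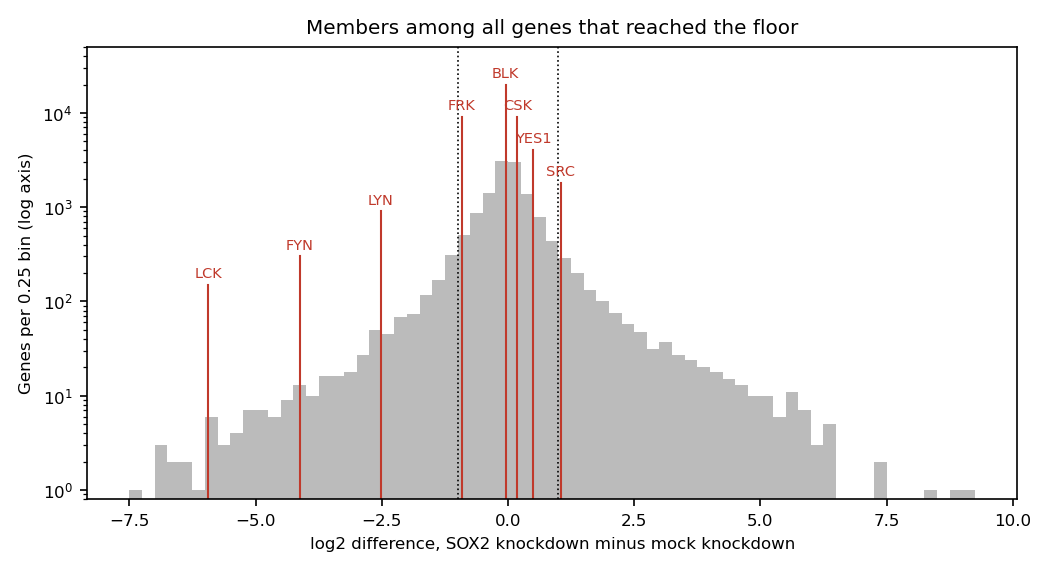
Histogram of the log2 difference, SOX2 knockdown minus mock knockdown, over the 13609 genes that reached the floor (1 value per gene from its brightest probe set, counts on a log axis), with the 8 members that reached it as labelled lines whose heights carry no value and dotted lines at 2-fold. LCK at -5.94, FYN at -4.13 and LYN at -2.52 lie in the left tail, and BLK, CSK and YES1 lie between the dotted lines.

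Genes around the kinases were taken from lists chosen with earlier results of these data known. Of 16 other cytoplasmic tyrosine kinases that reached the floor, 1 was at least 2-fold higher and 0 at least 2-fold lower, with a median of -0.070. For this list and those below, the shares over all genes that reached the floor were 8.44% higher and 7.29% lower. In a list this short, nothing is read from these counts. The gene past 2-fold at its brightest probe set was PTK2, the focal adhesion kinase, to which SRC binds at adhesions. PTK2 gave 3548 on the SOX2 knockdown array and 846 on the mock array, a log2 difference of 2.07 or 4.19-fold higher. Its 3 probe sets that reached the floor differed by 1.70 to 2.07. PTK6, an epithelial kinase related to FRK, was singled out after its values were seen. It gave 425 on the SOX2 knockdown array and 217 on the mock array, a difference of 0.97. Its other probe set differed by 1.01, past 2-fold.

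The list of adhesion substrates and adaptors held 5 of the 7 genes past 2-fold. Of 15 genes that reached the floor, 4 were higher and 1 was lower by 2-fold or more, against 8.44% and 7.29% of all genes. The median was 0.31, against -0.0063 over all genes. This list was chosen with earlier results of these data known, so nothing is read from its counts or its median. With the probe set of smallest difference 1 gene of the list was at least 2-fold higher. Beside PTK2 the higher genes were ARHGAP35, a substrate of SRC, at 1.46, NEDD9, a docking protein of focal adhesions, at 1.42, and the transcription factor STAT3 at 1.01. ARHGAP35 gave 2205 on the SOX2 knockdown array and 801 on the mock array, but its 4 probe sets reaching the floor ran from 0.12 to 1.46. NEDD9 gave 657 on the SOX2 knockdown array and 245 on the mock array, and its probe sets ran from -0.055 to 1.42. STAT3 gave 983 on the SOX2 knockdown array and 490 on the mock array, and its probe sets ran from 0.68 to 1.08. CAV1, the caveolar coat protein first known as an SRC substrate, gave 1267 on the SOX2 knockdown array and 2621 on the mock array, a difference of -1.05, with -1.15 at its other probe set.

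Genes that restrain or support the kinases were within 2-fold at their brightest probe sets where these reached the floor. None of 10 restraining genes that reached the floor passed the limit, with a median of 0.0013. They ran from LIME1, a membrane adaptor that binds CSK and LCK, at 0.74, with 326 on the SOX2 knockdown array and 196 on the mock array, to the phosphatase PTPN6 at -0.30, with 218 on the SOX2 knockdown array and 269 on the mock array. Another probe set of CBLC, a ubiquitin ligase of epithelial cells singled out after its values were seen, differed by 1.33. Of all genes that reached the floor 7.29% were lower and 8.44% higher by 2-fold, so a count of 0 in a list this short is not read as a result. Among 11 genes of activation, folding and lipid anchoring 0 passed too, with a median of -0.14. The highest was the phosphatase PTPN1 at 0.50, with 887 on the SOX2 knockdown array and 627 on the mock array. Another probe set of PTPN1 differed by -0.056. The lowest was the myristoyl transferase NMT2 at -0.79, with 136 on the SOX2 knockdown array and 235 on the mock array.

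**Figure D3:**
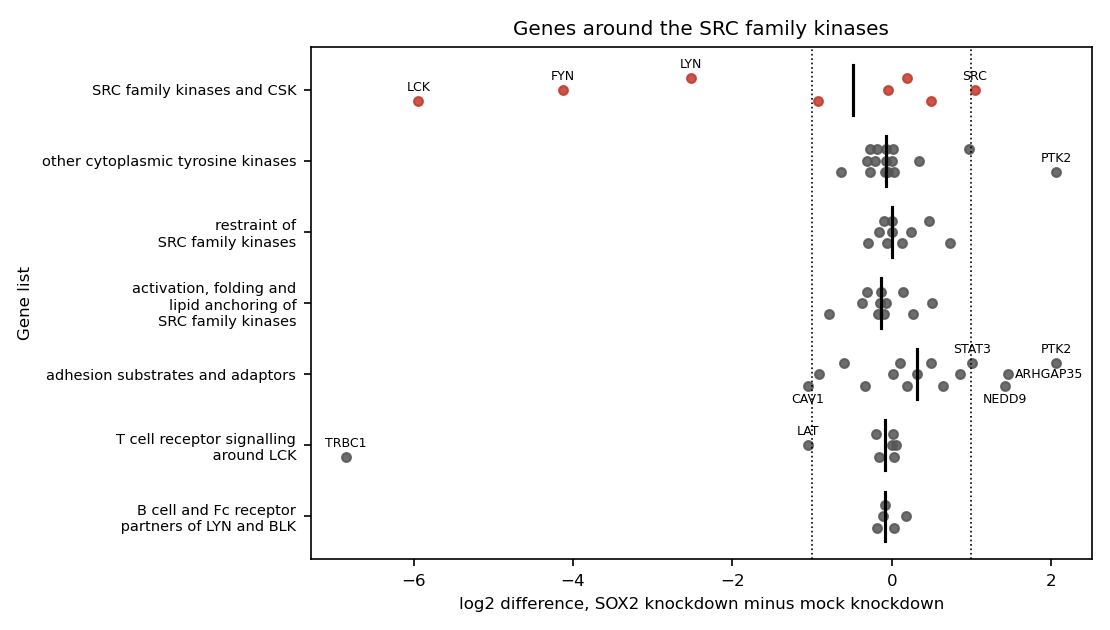
Log2 difference, SOX2 knockdown minus mock knockdown, of each gene that reached the floor (points, 1 per gene, spread vertically for legibility) in the member set and 6 gene lists, with list medians as black bars and 2-fold as dotted lines. LCK, FYN, LYN and TRBC1 lie left of -2, and PTK2, which stands on 2 lists, lies at 2.07.

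Partners of LCK in the T cell receptor pathway were mostly near or under the floor on both arrays. Of 21 genes on the list 18 had a probe set of their own and 8 reached the floor. Of these 2 were at least 2-fold lower and 0 higher, against 7.29% and 8.44% of all genes, and the median was -0.078. In a list this short, chosen with earlier results known, nothing is read from these counts. TRBC1, the constant region of the T cell receptor beta chain, gave 42.6 on the SOX2 knockdown array and 4892 on the mock array and was at least 71.4-fold lower. Its other probe sets differed by -3.49 and -2.92, and all 3 can match several transcripts. Without such probe sets TRBC1 had no value, and 1 gene of the list was at least 2-fold lower. LAT, a membrane adaptor of T cell receptor signalling, gave 276 on the SOX2 knockdown array and 571 on the mock array, a difference of -1.05, with -1.33 at its other probe set. The receptor chains CD3D, CD3E and CD3G stayed under the floor, at 36.5 to 61.5 on the SOX2 knockdown array and 49.0 to 61.6 on the mock array. PTPRC, the CD45 phosphatase that activates LCK in T cells, gave 19.9 on the SOX2 knockdown array and 16.7 on the mock array. Among 5 B cell and Fc receptor partners of LYN and BLK that reached the floor 0 passed 2-fold. They ran from the adaptor LAT2 at 0.18 to the kinase SYK at -0.19. The 3 probe sets of SYK that reached the floor ran from -0.19 to 0.13.

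Markers of blood cells were set beside LCK, FYN and LYN. Of 11 T cell markers 4 reached the floor, their summed intensity was 391 on the SOX2 knockdown array and 382 on the mock array, and none differed by 2-fold. These 4 lay near the floor, at 65.9 to 120 on the SOX2 knockdown array and 73.7 to 116 on the mock array, so their sums say little. The marker list does not hold TRBC1, which was at least 71.4-fold lower at a probe set that can match several transcripts. Of 6 B cell markers 4 reached the floor, with sums of 411 on the SOX2 knockdown array and 409 on the mock array. The broad leukocyte list moved with the kinases in 2 of its 3 genes that reached the floor. LCP1, an actin bundling protein of leukocytes that many tumour lines also express, gave 48.4 on the SOX2 knockdown array and 2108 on the mock array and was at least 30.8-fold lower. LAPTM5, a lysosomal protein of blood cells, gave 107 on the SOX2 knockdown array and 318 on the mock array, a difference of -1.57, but -0.53 at its other probe set. Of 7 myeloid markers 4 reached the floor and 2 of these were at least 2-fold higher, LYZ at 11691 on the SOX2 knockdown array and 213 on the mock array and CD14 at 156 on the SOX2 knockdown array and 43.6 on the mock array. Of 6 fibroblast markers 4 reached the floor, and 1, LUM, was at least 2-fold lower as deposited, at 17.8 on the SOX2 knockdown array and 71.7 on the mock array, where it lay close to the floor. Of all genes that reached the floor 7.29% were lower and 8.44% higher by 2-fold, and nothing is read from counts in marker lists this short. The part of other cell types in the differences of the kinases was not tested.

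By their values on both arrays, the genes nearest to LCK were BAMBI, CSRP2, LCP1, STC2 and MICB. Likeness was the Euclidean distance of the pair of log2 values, taken over 2 arrays among genes that reached the floor, and ran from 0.27 for BAMBI to 0.70 for MICB. BAMBI, which blocks TGF-beta receptors as a decoy, gave 39.2 on the SOX2 knockdown array and 2362 on the mock array. CSRP2, a LIM domain protein, gave 47.1 on the SOX2 knockdown array and 2282 on the mock array, and its probe sets differed by -5.60 and -3.06. LCK and all 5 of these genes lay under the floor on the SOX2 knockdown array, so their order there is not measured, and the likeness says only that these probe sets were high on the mock array and under the floor on the other.

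The neighbours of LCK and LYN on their chromosomes did not share their low values. Among the 20 nearest measured genes of LCK, 10 on either side on chromosome 1, the median difference was 0.049. Of these 1 was at least 2-fold higher and 0 lower, against 8.44% and 7.29% of all genes. The genes beside LCK were FAM167B at -0.025, MTMR9LP at 0.086 and EIF3I at -0.019 on one side, and HDAC1 at 0.23, MARCKSL1 at 0.18 and FAM229A at -0.23 on the other. HDAC1, a histone deacetylase, gave 4995 on the SOX2 knockdown array and 4269 on the mock array. The 20 neighbours of LYN on chromosome 8 had a median of -0.034, with 2 at least 2-fold higher and 0 lower.

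FYN and FRK lie near each other on chromosome 6, FRK being 5 measured genes from FYN, and most genes around both were lower. Of the 20 neighbours of FYN 17 had negative differences and 2 were at least 2-fold lower, with a median of -0.51, against -4.13 for FYN itself. Among all genes that reached the floor 7.29% were at least 2-fold lower, which the count around FYN was near, and the median was -0.0063. Of the 20 neighbours of FRK, FYN among them, 18 had negative differences and 6 were at least 2-fold lower, with a median of -0.78, close to the -0.92 of FRK. The neighbourhoods shared 14 genes. The lowest neighbour of FYN was SLC16A10, an amino acid transporter, with 42.4 on the SOX2 knockdown array and 166 on the mock array. The 20 neighbours of BLK on chromosome 8 had a median of -0.59, with 8 at least 2-fold lower, while BLK, close to the floor on both arrays, differed by -0.048 and -0.44 at its probe sets.

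SRC, YES1 and CSK had neighbours with medians near 0. The 20 neighbours of SRC on chromosome 20 had a median of -0.023, with 2 at least 2-fold higher, among them TGM2 at 4.09. The 14 neighbours of YES1, which lies near the end of chromosome 18, had a median of 0.085, with 1 at least 2-fold higher. The 20 of CSK on chromosome 15 had a median of 0.025, with 0 at least 2-fold higher. Over all genes that reached the floor the median was -0.0063 and 8.44% were at least 2-fold higher, so nothing is read from these counts.

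**Figure D4:**
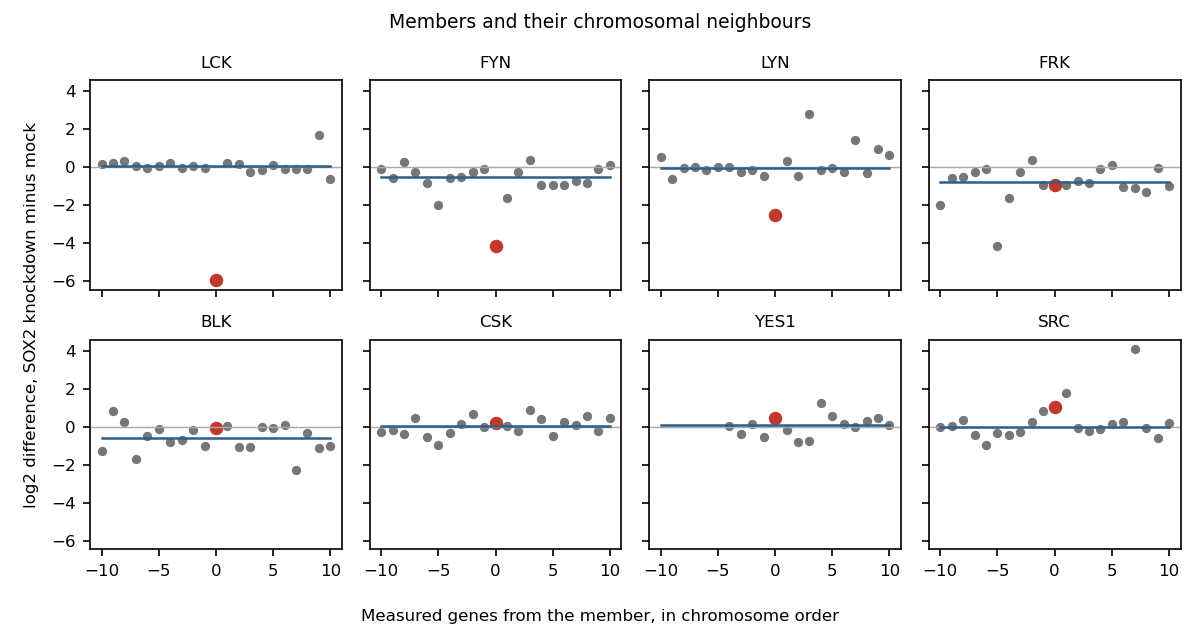
Log2 difference, SOX2 knockdown minus mock knockdown, of each of the 8 members that reached the floor (large points) and of the 10 measured genes on either side in chromosome order (small points; YES1 has 14 neighbours in all), with the neighbours' median as a line. LCK and LYN stand alone below neighbours whose medians are 0.049 and -0.034, while FRK at -0.92 lies close to its neighbours' median of -0.78.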

How the data were processed

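RNA of the SW620 cultures was labelled with biotin by a 3′ in vitro transcription kit, and each culture was hybridized to its own array, per the labels' protocols. Per the submitters' processing notes, the authors made the deposited intensity values with RMA, whose version and settings are unknown here. The values reach 23253, so their scale is linear and not the usual log2 of RMA. RMA equalises the distributions of arrays, which hides a change in the total RNA of a cell, and gives no detection call.

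Differences were taken between the log2 of the deposited intensity on the arrays, with no pseudocount. Of 54675 probe sets 62 were controls, 41091 had 1 symbol in the platform annotation, 1801 several and 11721 none, and the last 2 kinds stayed unnamed. By Entrez identifier 41037 were matched to RefSeq (GRCh38.p14), which was used for names and gene order and changed 0 symbols. A gene took its probe set of highest mean and entered where the higher value reached the floor, 68.5, which is the median of all values without controls. A fold with the dimmer value under the floor was taken against the floor, as a bound. No test was run, since each group held 1 array, and genes were counted at 2-fold. The number of arrays limits the precision, and no error between cultures can be given.

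The members and lists were chosen with earlier results of these data known. Named were all members, list genes past 2-fold or otherwise the highest and lowest of a list, the 5 genes nearest to the most different member, its 3 neighbours on each side, and cell type markers. The script that counts genes was tested on simulated data with planted changes. A planned comparison of the proteins was not made, and no protein sequence was used here. Python 3.11.15, numpy 2.4.6, pandas 2.3.3 and matplotlib 3.10.9 were used.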

Additional observations from a re-analysis of the deposited data

How the results depend on the processing

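The alternatives changed the normalization of the arrays (quantiles, centring on medians or by intensity), the floor (25th or 75th percentile, or none), or the probe set of a gene, took values under the floor at the floor, or used a pseudocount of 32 or limits of 1.5-fold and 3-fold. The count of members past the limit on the lower side was 3 as reported and 3 or 4 in all alternatives but the one that left out the probe sets able to match several transcripts, where it was 1. There LCK had no probe set left and those of FYN lay under the floor, and LYN differed by -3.14. Over all alternatives that gave a value LCK ranged from -5.97 to -3.87, FYN from -4.14 to -3.19, LYN from -3.14 to -2.24, FRK from -1.65 to -0.77 and YES1 from 0.47 to 0.65. SRC ranged from -0.018 to 1.06. It changed sign, at -0.018, when the probe set that differed least was used. The count of members past the limit on the higher side, 1 as reported, was 0 with intensity-dependent centring, with a pseudocount of 32, with a limit of 3-fold, and with the median or the smallest difference over probe sets. SRC differed by 0.98 and 0.95 in the first pair of these. Among the genes of the lists, 4 were higher and 3 lower past the limit as reported. The counts were 8 and 7 at 1.5-fold and 1 and 1 at 3-fold, and 1 gene was higher with the probe set of smallest difference. Over all genes, between 604 and 2044 were higher and between 467 and 2012 lower. No paired analysis was possible because each group held 1 array.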
